A study of Homo sapiens with 12 samples.

Results

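The enzymes of the urea cycle and of glutamine metabolism described here are 9 genes, chosen by gene symbol, of the 60664 in the table: CPS1, OTC, ASS1, ASL, ARG1, ARG2, NAGS, GLUL and GLS2. Each symbol matched a single row. Their messenger RNA was measured in 12 libraries of 2 human lines from hepatocellular carcinoma, in 4 groups of 3. Huh7 cells received a synthetic mimic of miR-628-3p or a negative control mimic, and MHCC97H cells carried a vector that overexpresses miR-628-3p, called pGreen-628, or the empty vector. Both lines grew in the same serum-containing medium, no drug or other agent is named for any group, and neither the time after transfection nor the mimic dose is given in the labels. Each line is a single tumour-derived line, and delivery of the microRNA differed between the lines. The labels do not say that the libraries of a group came from separate cultures, so p values measure only the spread between these libraries, which may be technical.

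The liver turns ammonia into urea through a cycle of enzymes shared between mitochondrion and cytosol. NAGS makes N-acetylglutamate, the activator that CPS1 needs to join ammonia and bicarbonate into carbamoyl phosphate. OTC passes that group to ornithine to form citrulline, ASS1 joins citrulline to aspartate, ASL splits the product into arginine and fumarate, and arginase releases urea. ARG1 is the cytosolic arginase of the liver and ARG2 the mitochondrial isoform of other tissues. GLUL, glutamine synthetase, captures ammonia in the hepatocytes around the central vein and is a target of WNT signalling there, while GLS2 is the liver-type glutaminase that releases ammonia from glutamine.

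A microRNA represses messenger RNAs whose 3′ untranslated region pairs with its seed, bases 2 to 8 of the mature strand. The mature miR-628-3p (RefSeq, GRCh38.p14, chr15:55372954-55372974, minus strand) is printed first, with the seed in capitals. The pairing sequence in a messenger RNA is TTACTAG. It occurred in the longest annotated 3′ untranslated region of 1299 of 19141 genes searched, or 6.79%, and in 1 of the 9 enzymes, GLUL. The GLUL site begins at base 925 of an untranslated region of 2701 bases (GRCh38, chr1:182383462-182383491, minus strand) and is printed second, with the match in capitals. It is shown because it is the one place among these transcripts where the raised microRNA could pair through its full seed in the searched regions; a match is a description of the letters, not evidence of binding.
miR-628-3p: uCUAGUAAgaguggcagucga
GLUL site: cagacaacacgTTACTAGcagtcacttgat

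Levels are given in FPKM, fragments per kilobase of exon scaled to the total of fragments counted in the library, which allows comparison between genes of different length. Libraries held 16472932 to 19578875 reads. The hepatocyte markers separated the lines: the summed level of 11 markers was 65.3 to 70.9 FPKM in the MHCC97H miR-628-3p libraries and 41.1 to 44.3 in the MHCC97H vector libraries, but 13296 to 14739 in the Huh7 miR-628-3p libraries and 12554 to 13318 in the Huh7 control libraries. In Huh7 all 11 markers reached 1 FPKM. In MHCC97H 9 of 11 did so with miR-628-3p and 8 of 11 with the vector, yet ALB, the albumin gene, lay between 13.3 and 42.7 FPKM there, against 6395 to 7886 in Huh7. Each of the 11 markers lay higher in Huh7 than in MHCC97H, where HNF4A kept 6.47 to 7.87 FPKM, against 15.2 to 21.7 in Huh7. The 4 cholangiocyte markers summed to 195 to 267 FPKM in the MHCC97H miR-628-3p libraries and 225 to 252 in the vector libraries, against 70.1 to 78.1 in the Huh7 miR-628-3p libraries and 75.6 to 85.0 in the Huh7 control libraries. KRT19 carried most of that sum, at 173 to 242 FPKM in MHCC97H and 51.0 to 62.1 in Huh7, while EPCAM ran the other way, at 0.168 to 0.489 in MHCC97H and 6.54 to 7.77 in Huh7. The 6 leukocyte markers summed to 2.34 to 3.12 FPKM over the MHCC97H libraries and 136 to 179 over the Huh7 libraries, most of it LYZ, and the 6 fibroblast markers to 1.74 to 3.15 in MHCC97H and 44.0 to 66.1 in Huh7, most of it LUM. The part of these markers in the results was not tested. In a bulk library, fewer cells that express a gene and less of its RNA per cell cannot be told apart.

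The 2 lines expressed different parts of the cycle. In Huh7 the levels ran, from high to low, ARG1, GLUL, ASL, ARG2, ASS1, CPS1 and NAGS, and in each group every library of one gene lay above every library of the next. In MHCC97H the order was GLUL, ASS1, ASL, ARG2 and NAGS, again with no overlap between neighbours, and the levels of ARG1, CPS1 and GLS2 below them overlapped. The 9 genes summed to 69.8 to 80.3 FPKM in the MHCC97H miR-628-3p libraries and 74.5 to 75.2 in the MHCC97H vector libraries. In Huh7 the sums were 189 to 208 FPKM with the mimic and 199.9 to 208 with the control mimic. ARG1 made up 48.5% of that sum in Huh7 mimic libraries and 43.6% in Huh7 control libraries. GLUL made up 56.1% in MHCC97H miR-628-3p libraries and 59.6% in MHCC97H vector libraries.

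**Figure D1:**
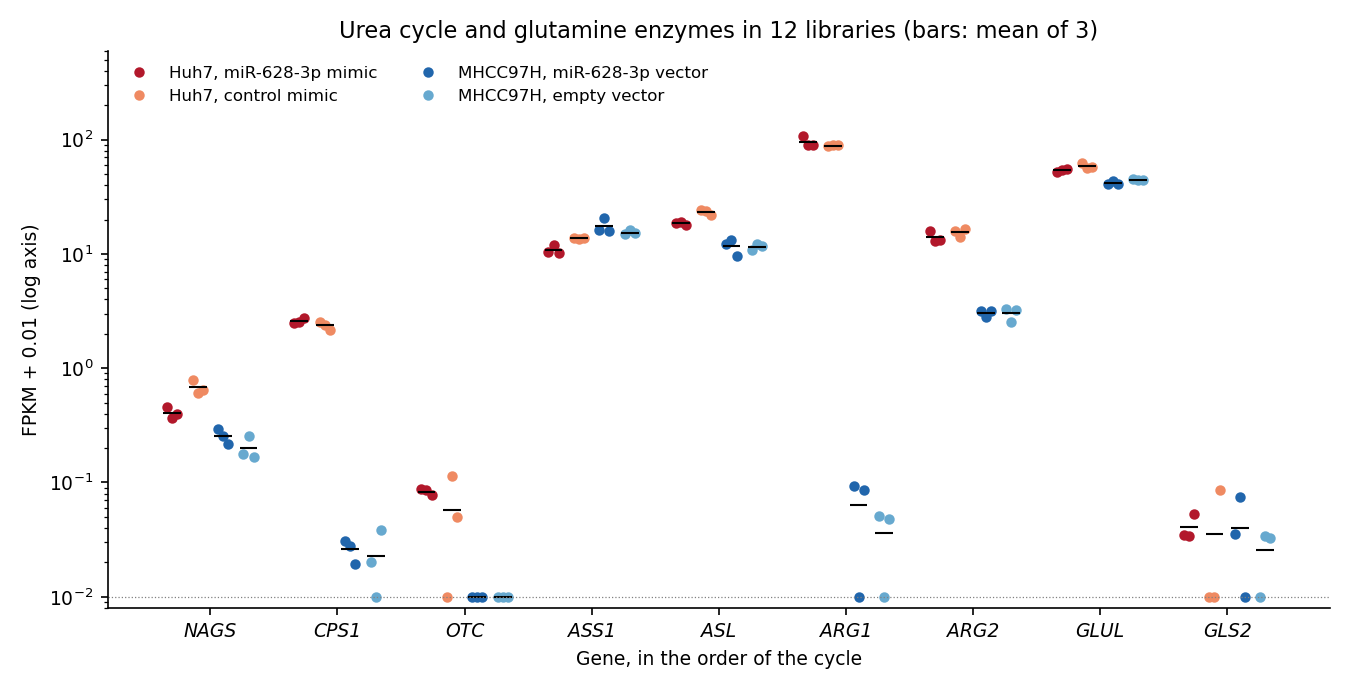
Level of each of the 9 genes in every library, on a log axis of FPKM + 0.01, with genes in the order of the cycle and 1 point per library in the 4 groups, a bar at each mean and a dotted line at an FPKM of 0. ARG1 lies between 87.7 and 107 FPKM in Huh7 and at 0.0835 or below in MHCC97H, while GLUL lies above 40 in all 12 libraries.

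To ask what the mimic did in Huh7, the mimic libraries were compared with the control libraries by limma on log2(FPKM + 1). A gene was called at an adjusted p under 0.05 over all 12508 genes with a mean of at least 1 FPKM, and adding 1 pulls the fold change of weakly expressed genes toward 0. ASS1 and ASL, the neighbouring steps that make argininosuccinate and release arginine, fell, and no enzyme of the 6 tested rose. The genome-wide share of calls was 21.1%, with 14.4% lower and 6.75% higher. A count of 2 of 6 stands against that background and against a median log2 fold change of -0.046 over all genes tested, beside -0.13 over the 6. CPS1, ARG1, ARG2 and GLUL were tested and not called, and NAGS, OTC and GLS2 lay below the mean of 1 FPKM.

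ASS1 (argininosuccinate synthase; ENSG00000130707, GRCh38.p13 chromosome 9, 130444961 to 130501274) was at 10.5, 12.01 and 10.2 FPKM in the 3 mimic libraries, against 13.9, 13.5 and 13.9 FPKM in the 3 control libraries. Every mimic library lay below every control library, and the control libraries were close together. The log2 fold change was -0.31 (95% interval -0.47 to -0.16, adjusted p = 0.0297, lower in 3 of 3 mimic libraries). ASL (argininosuccinate lyase; ENSG00000126522, chromosome 7, 66075800 to 66094697) was at 18.7, 19.1 and 18.0 FPKM with the mimic, against 24.4, 23.7 and 21.7 FPKM in the control libraries. These groups did not overlap either. Of all genes tested in Huh7, 48.8% had groups without overlap, and 29.3% were lower in this way. The log2 fold change was -0.31 (95% interval -0.44 to -0.17, adjusted p = 0.0279). The ratio of ASL to ASS1 was 1.79, 1.59 and 1.76 in the mimic libraries and 1.76, 1.76 and 1.56 in the control libraries, so the pair moved in parallel.

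Huh7 fold changes fell as transcript GC content rose. Over 12452 genes that have a transcript sequence, the Spearman rho between Huh7 fold change and GC content was -0.72. The longest transcripts of ASS1 and ASL hold 57.4% and 59.4% GC, against a median of 47.1% over these genes. After a correction for GC content and length, fitted to each library without regard to group, the log2 fold change was -0.10 for ASS1 (adjusted p = 0.305) and -0.085 for ASL (adjusted p = 0.237), and 0 of 6 enzymes was called. At an unadjusted p under 0.05, 1 of them, GLUL, passed in the corrected limma fit, as did 2864 of the 12452 genes. The correction left 1 of 12452 genes called, or 0.00803%, and it would also remove a mimic effect that ran with GC content. The part of the GC trend in the falls of ASS1 and ASL was not tested beyond this correction. Leaving out any single one of the 6 Huh7 libraries ended the ASS1 call, with adjusted p between 0.0503 and 0.0756. The ASL call ended without control mimic replicate 2 or any one of the 3 mimic replicates, with adjusted p up to 0.0720, and held without control mimic replicate 1 or 3.

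**Figure D2:**
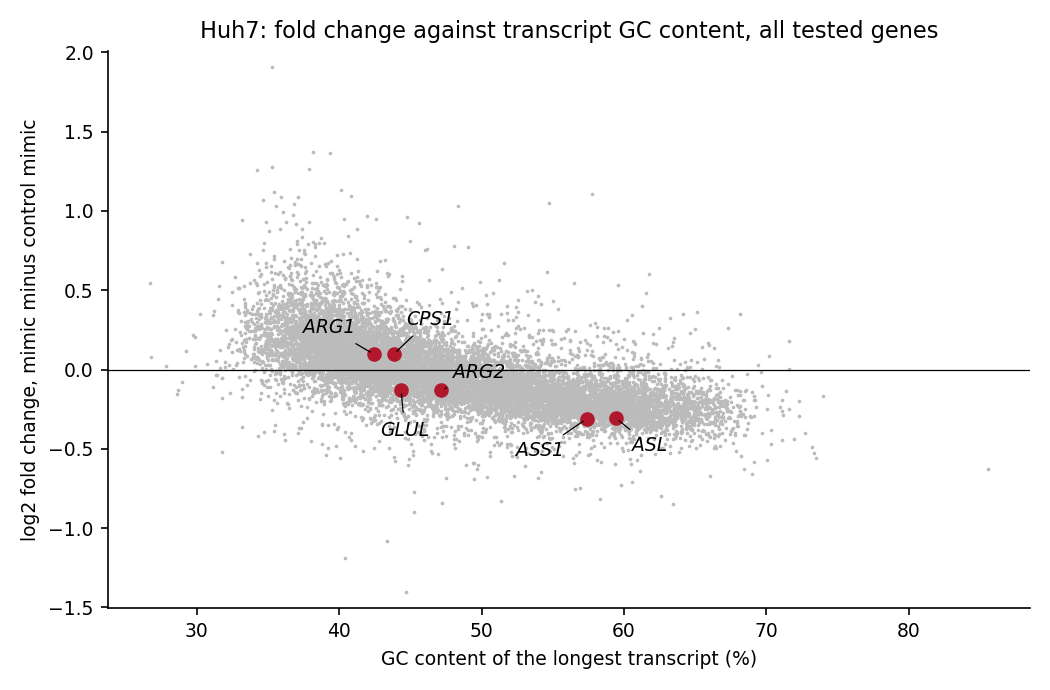
Huh7 log2 fold change (mimic minus control mimic) against the GC content in percent of the longest transcript, with 1 grey point per tested gene that has a transcript sequence and the 6 tested enzymes in red. ASS1 and ASL, at 57.4% and 59.4% GC, lie among the grey points of similar GC content.

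The gateway enzymes were weak or absent in Huh7. CPS1 (carbamoyl phosphate synthetase; ENSG00000021826, chromosome 2, 210477682 to 210679107) was at 2.49, 2.55 and 2.75 FPKM with the mimic, against 2.54, 2.40 and 2.15 in the control libraries. The groups overlapped, and the log2 fold change of 0.097 (95% interval -0.081 to 0.28, adjusted p = 0.365) was not called. OTC (ornithine transcarbamylase; ENSG00000036473, chromosome X, 38352586 to 38421446) had 2, 2 and 2 reads in the mimic libraries and 0, 3 and 1 in the control libraries, too few for a comparison.

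NAGS (N-acetylglutamate synthase; ENSG00000161653, chromosome 17, 44004622 to 44009068) was at 0.445, 0.354 and 0.387 FPKM in the mimic libraries, against 0.783, 0.592 and 0.632 in the control libraries. Its groups did not overlap, on 16, 13 and 16 reads with the mimic and 29, 24 and 22 in the control libraries. Among genes with a mean of at least 1 FPKM, which leave NAGS out, 48.8% had groups without overlap (29.3% lower). The share among genes as weak as NAGS was not counted. The mimic level per read counted was 59.1% of the control level (95% interval 39.9 to 86.6, exact, counting error only). With the minimum mean lowered to 0.1 FPKM, NAGS entered the fit at -0.26 on the log2 scale (adjusted p = 0.0839), in a fit that called 3.48% of 19349 genes. With GC and length correction at that minimum the value was -0.076 (adjusted p = 0.621), and the NAGS transcript holds 63.8% GC.

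Neither arginase was called in Huh7. ARG1 (ENSG00000118520, chromosome 6, 131470832 to 131584332) was at 107, 89.6 and 88.9 FPKM with the mimic, against 87.7, 89.1 and 89.2 in the control libraries. A single mimic library stood high and the rest were together, with a log2 fold change of 0.097 (95% interval -0.074 to 0.27, adjusted p = 0.347). ARG2 (ENSG00000081181, chromosome 14, 67619920 to 67651708) was at 15.9, 12.9 and 13.3 FPKM with the mimic, against 15.7, 14.1 and 16.4 in the control libraries, and was not called (-0.13, 95% interval -0.33 to 0.072, adjusted p = 0.286). The ratio of ARG1 to ARG2 was 6.75, 6.94 and 6.71 in the mimic libraries and 5.57, 6.31 and 5.44 in the control libraries, without overlap, a comparison that was not tested. How many other gene pairs had ratios without overlap was not counted. The ARG1 and ARG2 transcripts hold 42.4% and 47.1% GC, and the part of GC content in the ratio was not tested. MED23 and VTI1B overlap ARG1 and ARG2 on the opposite strand, at 4.44 to 15.0 and 9.95 to 17.9 FPKM. The sources used here do not say whether reads were counted by strand, so reads of these pairs may mix.

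GLUL (glutamine synthetase; ENSG00000135821, chromosome 1, 182378098 to 182392206) was at 52.3, 54.2 and 55.5 FPKM with the mimic, against 62.9, 56.4 and 58.1 in the control libraries. The 3 mimic libraries lay below the 3 control libraries, as in 29.3% of the genes tested. The log2 fold change of -0.13 (95% interval -0.26 to 0.00022, adjusted p = 0.120) was not called. After GC and length correction the value was -0.18 (95% interval -0.31 to -0.056, adjusted p = 0.122). GLS2 (ENSG00000135423, chromosome 12, 56470944 to 56488414) had 1, 1 and 2 reads with the mimic and 0, 0 and 3 in the control libraries, so the liver-type glutaminase was at the floor of detection. Reads on SPRYD4, which overlaps it, reached 0.829 to 1.81 FPKM.

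**Figure D3:**
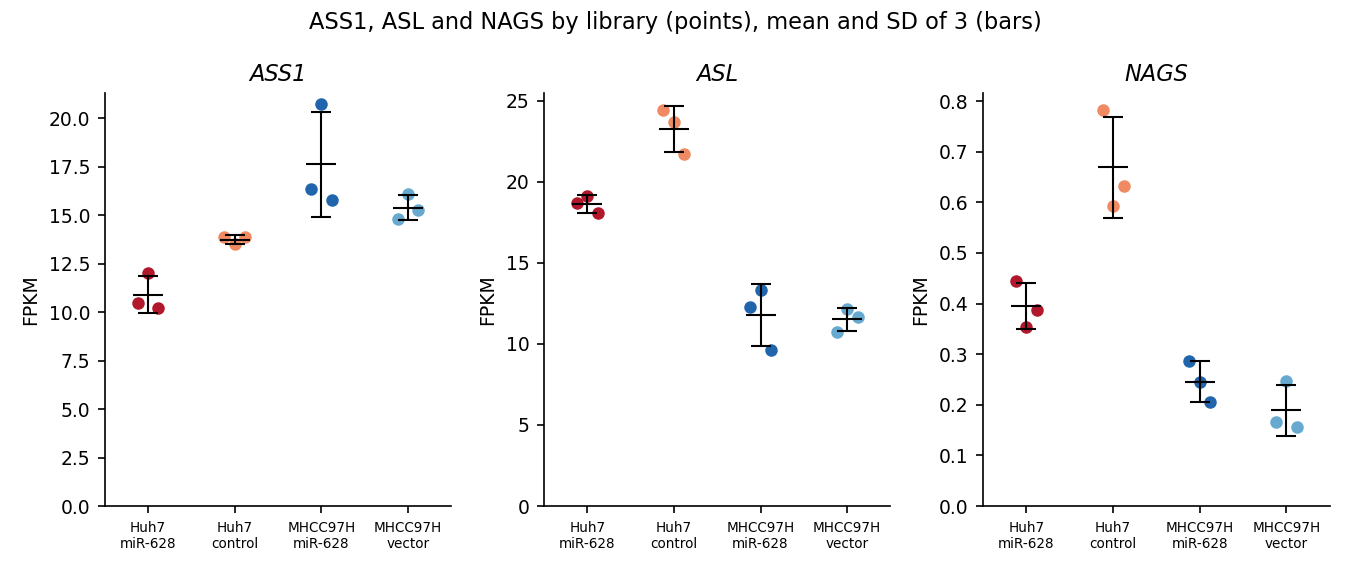
FPKM of ASS1, ASL and NAGS in every library, with the 3 libraries of each group as points and their mean and SD as bars. In Huh7 the mimic points lie below the control points for each gene, and in MHCC97H the points of the 2 groups overlap.

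In MHCC97H the vector carrying miR-628-3p was compared with the empty vector over the 12670 genes tested in this line. None of the 4 enzymes tested, ASS1, ASL, ARG2 and GLUL, was called by limma at an adjusted p under 0.05, and none reached an unadjusted p of 0.05 in the main limma fit or in limma voom on worked-back reads. The genome-wide share of calls was 5.37%. ASS1 was at 16.3, 20.7 and 15.8 FPKM with miR-628-3p, against 14.8, 16.1 and 15.3 with the vector. The groups overlapped, with 1 high library, and the log2 fold change was 0.17 (95% interval -0.069 to 0.42, adjusted p = 0.378). After GC and length correction the value was 0.21 (adjusted p = 0.0601), in a fit that called 1995 of 12630 genes, or 15.8%. ASL was at 12.3, 13.3 and 9.63 FPKM with miR-628-3p, against 10.7, 12.1 and 11.6 with the vector, an overlapping range with the third library lowest. Its log2 fold change was 0.018 (95% interval -0.25 to 0.29, adjusted p = 0.942).

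ARG2 was at 3.13, 2.77 and 3.17 FPKM with miR-628-3p, against 3.31, 2.53 and 3.24 with the vector, and the groups overlapped throughout (log2 fold change 0.0045, 95% interval -0.23 to 0.24, adjusted p = 0.984). GLUL was at 40.9, 43.1 and 40.9 FPKM with miR-628-3p, against 45.4, 44.2 and 44.1 with the vector. As in Huh7, every library with miR-628-3p lay below every control library, and the log2 fold change of -0.096 (95% interval -0.23 to 0.034, adjusted p = 0.366) was not called. In MHCC97H 30% of tested genes had groups without overlap, and 17.7% of tested genes were lower in this way. Of the 10910 genes tested in both lines, 505, or 4.63%, were lower without overlap in both, among them GLUL, the single enzyme with a seed match. Among the genes with a seed match the share was 3.41% (27 of 792), and among searched genes without one 5.1% (451 of 8840), given as counts with no test.

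The remaining enzymes were at or near 0 in MHCC97H. OTC had no read in any of the 6 MHCC97H libraries (0 reads in all), and a count of 0 leaves room for 3 reads, or 0.102 to 0.119 FPKM. CPS1 had 2, 2 and 1 reads with miR-628-3p and 1, 0 and 3 with the vector. ARG1 had 2, 0 and 2 reads with miR-628-3p and 1, 0 and 1 with the vector, and GLS2 had 1, 3 and 0 with miR-628-3p and 0, 1 and 1 with the vector. NAGS kept 10, 10 and 8 reads with miR-628-3p and 6, 9 and 6 with the vector, an overlapping range.

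Because the responses were read within each line, the difference between them was tested directly, in a fit over all 12 libraries with the MHCC97H effect first and the Huh7 effect subtracted. ASS1 differed: its effect was 0.17 in MHCC97H and -0.31 in Huh7, and the difference was 0.49 (SE 0.13, 95% interval 0.20 to 0.77, adjusted p = 0.0358). The call stood after GC and length correction (0.34, adjusted p = 0.0296). Of all genes tested, 11.6% were called, 1 of the 6 enzymes among them. After GC correction 13.5% were called, and the difference of effects rose with GC content at a rho of 0.563. Over the 12 fits that each left out a library, the ASS1 difference lay between 0.37 and 0.56 and was called in 5, with adjusted p between 0.00986 and 0.0850. With the minimum mean at 0.1 FPKM or no minimum, which test more genes, the adjusted p was 0.0538 and 0.0803. The difference was not called without any one of the 3 Huh7 control libraries, Huh7 mimic replicates 1 or 3, or MHCC97H vector replicates 1 or 3. The ASL difference was 0.32 (95% interval 0.025 to 0.62, adjusted p = 0.130) and 0.16 after GC and length correction (adjusted p = 0.127). It was called only without MHCC97H miR-628-3p replicate 3, at 0.45 (adjusted p = 0.00694), in a fit that called 32.6% of all genes. The intervals of the other tested differences included 0: CPS1 -0.092, ARG1 -0.060, ARG2 0.14 and GLUL 0.032. CPS1 and ARG1, at or near 0 in MHCC97H, passed the minimum mean only through Huh7. Adding 1 holds their MHCC97H effect near 0, so their differences cannot show whether the lines respond alike. At the lower minimum of 0.1 FPKM the NAGS difference was 0.32 (adjusted p = 0.0543), in a fit that called 5.66% of genes. No fit of this difference at that minimum had GC and length correction, and NAGS had 6 to 10 reads per MHCC97H library.

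**Figure D4:**
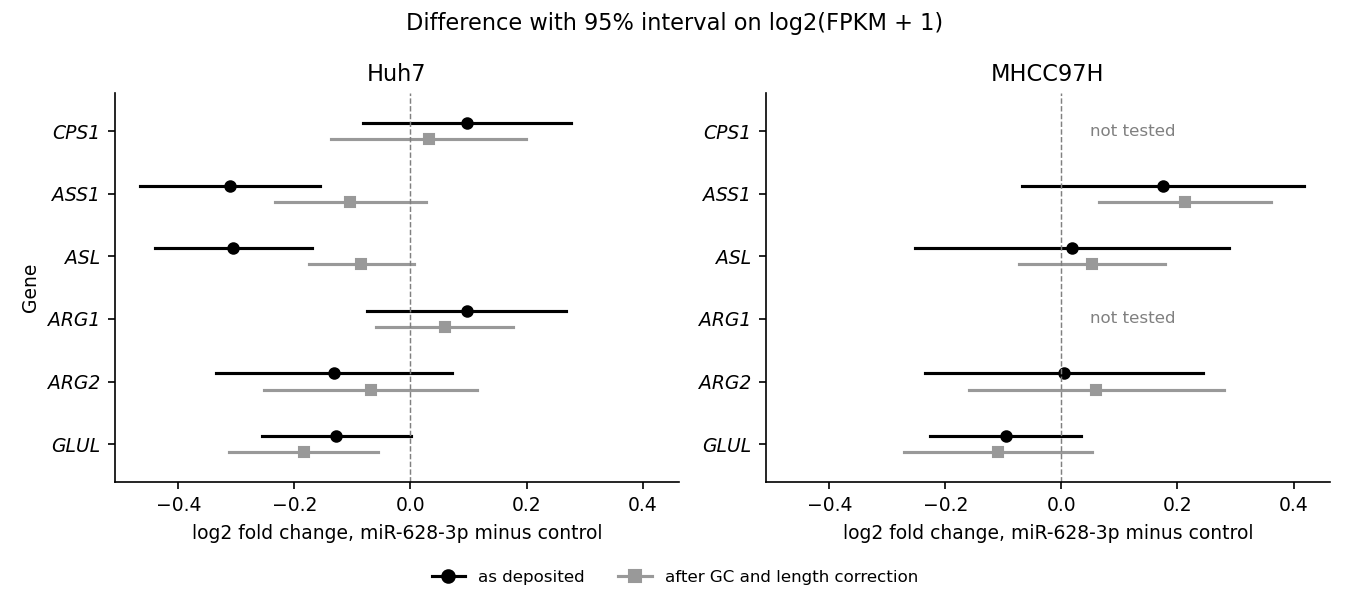
Log2 fold change on log2(FPKM + 1), miR-628-3p minus control, for the 6 tested enzymes in Huh7 and the 4 tested in MHCC97H, with points and lines for the estimate and its 95% interval, black as deposited and grey after GC and length correction. ASS1 and ASL lie at -0.31 in Huh7 as deposited and at -0.10 and -0.085 after correction.

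The genes that ran most closely with the 2 called enzymes were found by Pearson r of log2(FPKM + 1) over the 12 libraries after removing the mean of each line, among 9646 protein-coding genes. For ASS1 they were MTA2 (r = 0.974), CTSB (r = 0.965) and MAPKAPK2 (r = 0.963). For ASL they were GNB2 (r = 0.983), NCAPH2 (r = 0.982) and LIMK1 (r = 0.981). Each library contributes to both genes of a pair, the GC contents of these 6 genes ran from 52.8% to 64.4%, and the values are a description only.

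The control libraries of the 2 lines were compared for the levels themselves. MHCC97H vector was set against Huh7 control mimic, so line and control treatment cannot be told apart. All 6 enzymes tested were called, 5 of them lower in MHCC97H, in a comparison that called 84.5% of genes. CPS1 and ARG1 passed the minimum mean only through their Huh7 level, so the filter favoured a lower call for them. CPS1 fell out of the test when any single Huh7 control library was left out. ARG1 carried 2 reads over the 3 vector libraries and 6821 over the 3 Huh7 control libraries, 0.0297% of the Huh7 level per read counted (95% interval 0.00359 to 0.107, exact). CPS1 was at 0.558% (0.152 to 1.44) on 4 and 725 reads. ARG2 was at 19.7% and ASL at 49.4% of the Huh7 control level, with log2 fold changes of -2.03 and -0.96. GLUL was at 75.5% of the Huh7 control level (log2 fold change -0.40, adjusted p = 0.000118). With the minimum mean at 0.1 FPKM, NAGS was also lower, at 28.3% (16.6 to 46.5).

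ASS1 was the one enzyme higher in MHCC97H vector than in Huh7 control libraries, at 15.4 ± 0.644 FPKM against 13.7 ± 0.216 FPKM (SD, n = 3 each), and the groups did not overlap. In this comparison 85.5% of tested genes had groups without overlap, and 43% were higher in this way. The log2 fold change was 0.15 (adjusted p = 0.0139). The call was lost with median rescaling (0.084, adjusted p = 0.162) and in the joint fit of all 12 libraries (adjusted p = 0.140), and after GC and length correction the direction turned, to -0.057 (adjusted p = 0.226). The ratio of ASL to ASS1 was 0.725, 0.755 and 0.763 in the MHCC97H vector libraries and 1.76, 1.76 and 1.56 in the Huh7 control libraries. ASL therefore lay below ASS1 in MHCC97H and above it in Huh7, as FPKM per library.

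The windows before the starts of these genes also differ in composition. In the 250 bases before a start, over 35116 windows of RefSeq (GRCh38.p14), the median GC content was 58% and the median count of CG pairs 11. ARG1, OTC and CPS1, which with GLS2 were at or near 0 in MHCC97H, held 1, 2 and, over 3 starts, 1 to 3 CG pairs. OTC and GLS2 were near 0 in Huh7 as well, at 4 and 3 reads over the Huh7 control libraries. ARG2, ASL, ASS1 and GLUL, expressed in both lines, held 21 to 27. NAGS held 13 and GLS2 10. A pair of motifs was counted on both strands: TATAAA, present in 10.7% of windows, and GGGCGG, the letters bound by SP1-type factors, present in 42.6%. Each window of ARG1 and OTC held TATAAA and no GGGCGG, while ARG2 and ASL held 4 of GGGCGG each, counted without overlap, and no TATAAA. The windows are printed with the motifs in capitals, ARG1 beside ARG2 because the 2 arginases differ between the lines, and OTC and ASL as further examples of the 2 compositions.
ARG1, chr6:131572976-131573225, + strand: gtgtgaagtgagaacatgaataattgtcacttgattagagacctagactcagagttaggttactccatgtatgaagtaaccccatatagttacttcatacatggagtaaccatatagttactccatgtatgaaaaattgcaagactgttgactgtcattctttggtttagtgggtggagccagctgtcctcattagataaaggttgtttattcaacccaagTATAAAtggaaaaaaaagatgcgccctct
OTC, chrX:38352354-38352603, + strand: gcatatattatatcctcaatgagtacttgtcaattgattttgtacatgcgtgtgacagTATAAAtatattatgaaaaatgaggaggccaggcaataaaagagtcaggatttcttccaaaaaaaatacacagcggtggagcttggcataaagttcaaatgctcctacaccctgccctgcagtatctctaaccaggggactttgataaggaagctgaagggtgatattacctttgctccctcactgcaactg
ARG2, chr14:67619670-67619919, + strand: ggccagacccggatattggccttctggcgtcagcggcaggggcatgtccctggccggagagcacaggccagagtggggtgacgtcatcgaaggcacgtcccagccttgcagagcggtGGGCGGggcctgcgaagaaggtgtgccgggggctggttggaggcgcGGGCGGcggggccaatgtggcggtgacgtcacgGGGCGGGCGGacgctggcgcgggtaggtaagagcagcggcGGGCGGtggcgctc
ASL, chr7:66075569-66075818, + strand: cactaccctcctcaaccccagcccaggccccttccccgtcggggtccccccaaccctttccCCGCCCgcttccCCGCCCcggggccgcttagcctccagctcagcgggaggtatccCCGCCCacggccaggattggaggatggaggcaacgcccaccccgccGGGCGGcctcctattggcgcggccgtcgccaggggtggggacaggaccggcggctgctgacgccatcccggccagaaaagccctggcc
The relation of level to CG pairs runs over 9 genes, includes genes chosen for their function rather than their promoters, and is given as a description.

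**Figure D5:**
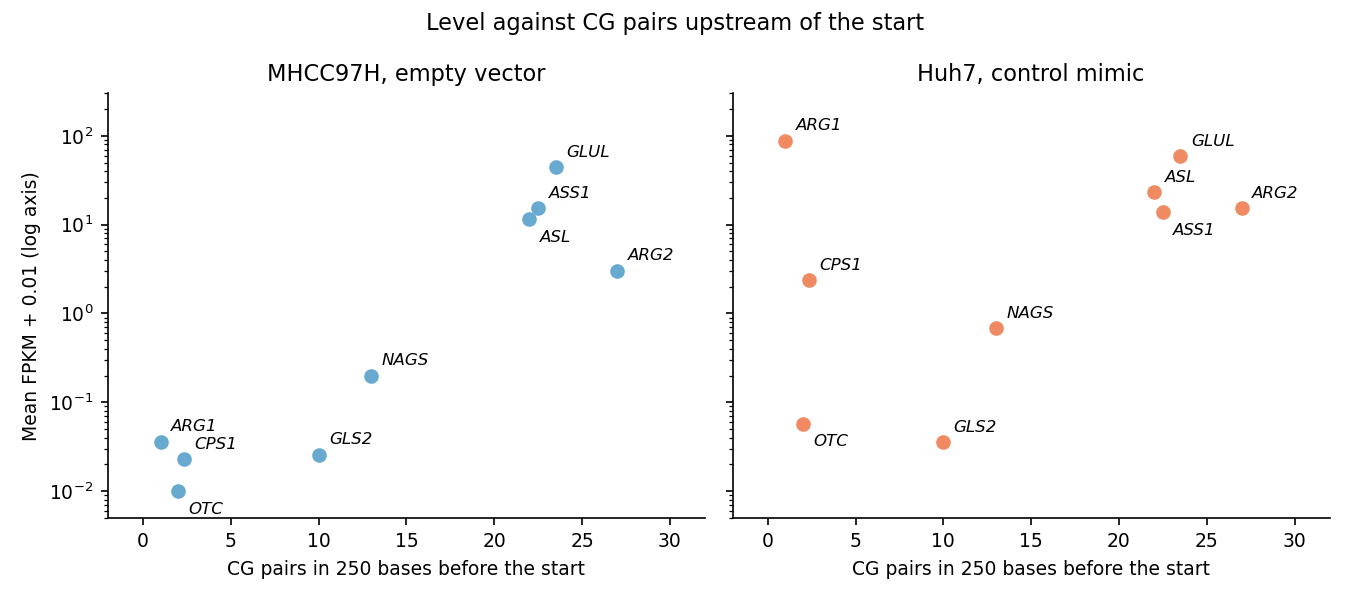
Mean level (FPKM + 0.01, log axis) in MHCC97H vector and Huh7 control libraries against the number of CG pairs in the 250 bases before the start, 1 point per gene and the mean over starts where a gene has several. ARG1 and CPS1, with few CG pairs, are high or moderate in Huh7 and near 0 in MHCC97H.

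The counts of neighbouring genes below stand beside genome-wide shares of 6.75% called higher and 14.4% called lower in Huh7, with a median log2 fold change of -0.046, and of 2.32% higher and 3.05% lower in MHCC97H, with a median of -0.039. Suppliers of the cycle were counted from a list of 14 transporters and enzymes. In Huh7 2 of the 12 tested fell and 0 rose, a share near the 14.4% of all genes. They were SLC25A18, a mitochondrial glutamate carrier, at 8.56 ± 0.643 FPKM with the mimic against 10.6 ± 0.947 with the control mimic (log2 fold change -0.28, adjusted p = 0.0446), and GOT1, the cytosolic aspartate aminotransferase, at 57.4 ± 3.47 with the mimic against 66.5 ± 3.24 with the control mimic (SD, n = 3 each; -0.21, adjusted p = 0.0460). In MHCC97H 1 of 9 fell and 0 rose. That was SLC25A13, the mitochondrial carrier that exports aspartate for ASS1, at 35.3 ± 1.02 FPKM with miR-628-3p against 43.7 ± 0.449 with the vector (-0.30, adjusted p = 0.0262). Its effects in the lines differed (-0.31, adjusted p = 0.0180).

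Of 20 glutamine genes tested in Huh7, 5 rose and 3 fell, against 6.75% and 14.4% of all genes. The glutamine transporters SLC38A1 (49.2 FPKM with the mimic against 38.7 with the control mimic, log2 fold change 0.34, adjusted p = 0.0277) and SLC38A4 (12.2 with the mimic against 9.85 with the control mimic, 0.29, adjusted p = 0.0373) and PPAT, the first enzyme of purine synthesis (26.5 with the mimic against 22.3 with the control mimic, 0.24, adjusted p = 0.0380), rose. In MHCC97H 1 of 19 rose and 2 fell, against 2.32% and 3.05% of all genes. Once corrected for GC content and length, 1 was higher and 6 were lower, in a fit that called 8.47% of all genes higher and 7.32% lower. SLC38A5, another glutamine transporter, rose (2.77 FPKM with miR-628-3p against 1.71 with the vector, log2 fold change 0.47, adjusted p = 0.0411), and SLC3A2, the heavy chain of amino acid exchangers, fell (78.3 FPKM with miR-628-3p against 105 with the vector, -0.43, adjusted p = 0.0228), as did the serine synthesis enzyme PSAT1 (-0.52, adjusted p = 0.00581).

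Of 20 genes of arginine, polyamine and proline metabolism tested in Huh7, 8 fell and 0 rose, against 14.4% and 6.75% of all genes. Those with the smallest p included ALDH4A1 of proline breakdown, at 8.21 FPKM with the mimic against 10.9 with the control mimic (-0.37, adjusted p = 0.0272). The antizymes OAZ2 and OAZ1, which target ornithine decarboxylase, also fell. OAZ2 was at 34.2 FPKM with the mimic against 42.1 with the control mimic, and OAZ1 at 253 with the mimic against 322 with the control mimic. In MHCC97H 2 of 21 rose and 1 fell. The polyamine acetyltransferase SAT1 fell (224 FPKM with miR-628-3p against 342 with the vector, -0.61, adjusted p = 0.00374), and ALDH18A1, which starts proline and ornithine synthesis from glutamate (39.1 FPKM with miR-628-3p against 28.6 with the vector, 0.44), and PRODH2, which breaks down hydroxyproline (8.66 with miR-628-3p against 6.00 with the vector, 0.46), rose. The median log2 fold change was -0.19 over the tested members in Huh7, against -0.046 over all genes, and -0.068 over the members after GC and length correction. In MHCC97H the median was -0.051, against -0.039 over all genes.

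Among 15 regulators tested in Huh7, 1 rose and 5 fell, against 6.75% and 14.4% of all genes: NR3C1, the glucocorticoid receptor, rose (0.23, adjusted p = 0.0369), and CEBPA, a factor that activates urea cycle genes, fell to 74.2 ± 2.11 FPKM with the mimic, against 90.4 ± 3.88 with the control mimic (-0.28, adjusted p = 0.0276). HNF4A, a factor that maintains hepatocyte genes, also fell (-0.28, adjusted p = 0.0379). In MHCC97H 0 of 13 passed at an adjusted p under 0.05 by limma, and 6 passed at an unadjusted p under 0.05, as did 2819 of all 12670 genes. By limma voom 2 were called, against 5.83% of all genes. With GC and length correction, which called 15.8% of all genes in this line, 3 regulators were higher and 1 was lower. CEBPA was at 39.0 FPKM with miR-628-3p against 29.4 with the vector, and its effects in the lines differed by 0.67 (adjusted p = 0.00449). Those of HNF4A differed by 0.46 (adjusted p = 0.0193). Of the pericentral WNT-responsive genes, the group that holds GLUL in liver, 0 of 4 passed in Huh7. There 2 had an unadjusted p under 0.05 by limma, as did 5236 of all 12508 genes, and limma voom called 1, against 28.3% of all genes. In MHCC97H 1 of 4, TBX3, rose (3.05 FPKM with miR-628-3p against 2.03 with the vector, 0.42, adjusted p = 0.0387). With GC and length correction 0 members of any of these 5 lists were called in Huh7, in a fit that called 1 of 12452 genes. In MHCC97H the corrected counts were 1 higher and 2 lower for the suppliers, 2 higher and 2 lower for the arginine, polyamine and proline genes, and 1 higher and 0 lower for the pericentral genes. That MHCC97H fit called 8.47% of all genes higher and 7.32% lower.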

How the data were processed

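Messenger RNA was sequenced, per the labels, from poly-A RNA with strand-marking dUTP libraries read from both ends. The submitters' processing notes name HISAT2, HISAT and HTSeq with builds GRCh38 and hg38 and give no versions. The deposited values are FPKM of 60664 genes, with no stated scaling between libraries beyond the total. Each value gave a whole number of reads within 0.01 (100% of values), so reads were worked back for low genes and for limma voom.

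Tests ran in R 4.3.3 with limma 3.58.1, applied to log2(FPKM + 1) with lmFit, eBayes with a mean-variance trend and genes at a mean of at least 1 FPKM, and calls at a Benjamini-Hochberg adjusted p under 0.05. GC and length correction fitted natural splines of 5 degrees of freedom to the deviation of each library from the gene mean, blind to group. Of the 58337 genes with a GENCODE 29 transcript, the fit used those that passed the filter, 12452 in Huh7 and 12630 in MHCC97H at 1 FPKM. Combinations of this correction with the block and with the 0.1 filter were added after seeing the data. The main limma fit, limma voom and the GC and length correction were run on simulated data for comparisons of a pair of groups. For the difference of effects only the main fit was simulated. The remaining settings were not simulated. Alternatives changed the pseudocount (0.1), filter (0.1 or none), scaling, model and block, and left out each library. Counting intervals are exact at 95%. Searches and figures used Python 3.11.15, numpy 2.4.6, pandas 2.3.3, scipy 1.17.1 and matplotlib 3.10.9.

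The 9 enzymes, the 5 neighbour lists and the tests were chosen with earlier results of these data known. Named genes are all 9 enzymes, up to 4 called members of each list with the smallest p per line, and the 3 genes most like each called enzyme; some genes that this rule names are not reported here. For 14 ASS1 pseudogenes, 4 of GLUL and 1 of ASL, the sources used here do not say how reads matching several places were counted, and each was at 0.381 FPKM or below.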

Additional observations from a re-analysis of the deposited data

Results flagged for a closer look

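The ASS1 effect of miR-628-3p differed between the lines by 0.49 on the log2 scale (effect 0.17 in MHCC97H and -0.31 in Huh7), in the test of the difference itself (adjusted p = 0.0358 by limma). The call was lost in 7 of the 12 fits that left out a library, and at a minimum mean of 0.1 FPKM (adjusted p = 0.0538) or no minimum (adjusted p = 0.0803). Delivery by vector in MHCC97H and by mimic in Huh7 cannot be told apart from the line.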

How the results depend on the processing

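In Huh7 the 2642 genes called became 674 at a mean of 0.1 FPKM, 7 without a filter, 866 in the joint fit, 1 with GC and length correction, 1 with that correction and the block and 2 with it at 0.1 FPKM, and 0 to 1661 without single libraries. Of the enzymes, 1 was called at 0.1 FPKM, 0 without a filter, 0 in the joint fit and 0 with each GC correction, and 0 to 1 without single libraries. In MHCC97H the 680 became 326 without a filter, 1672 in the joint fit, 1995 with GC and length correction, 1622 with the block added and 1483 at 0.1 FPKM, and 142 to 1604 without single libraries. The difference of effects gave 1662, and 967 without a filter, or 650 to 4656 without single libraries; the enzymes called in it were 0 at 0.1 FPKM, 0 without a filter and 0 to 2 without single libraries. ASS1 between the control libraries reversed to -0.057 with GC correction, also with the block, and to -0.029 at 0.1 FPKM. The cause was not tested. Libraries share only a replicate number: the deviations of same-numbered libraries correlated at -0.0146, -0.0751 and 0.0369 in Huh7 and at -0.0879, 0.305 and 0.135 in MHCC97H. The replicate block gave 1187 calls in Huh7, 495 in MHCC97H and 1699 for the difference, and kept 2, 0 and 1 enzyme calls. Depth limits OTC, GLS2 and NAGS, and in MHCC97H also CPS1 and ARG1, to few reads.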
